A study of Mus musculus with 26 samples.

Results

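The genes described here encode the proteins of the cytosolic ribosome, measured in 3 lung cancer lines from mice, each driven by an EML4-ALK fusion and cultured with the ALK inhibitor alectinib or with its vehicle. Members were chosen by symbol alone: Rpl or Rps followed by a number and at most one letter, together with Rplp0, Rplp1, Rplp2 and Rpsa. Of the 55415 rows of the counts table, 83 met this rule, 51 of the large (60S) and 32 of the small (40S) subunit. The rule left out 300 symbols holding -ps and 10 Rps6k kinase symbols. Another 11 symbols, among them Rps3a1 and Rpl22l1, fell outside it by spelling.

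EA1, EA2 and EA3 came from lung tumors of C57BL/6 mice in which an adenovirus with Cas9 and guide RNAs had joined Eml4 to Alk, giving fusion variant 1. EA1 arose in a Trp53 wild-type mouse, and EA2 and EA3 in Trp53-null mice; EA2 was established at another institution, and the age of the mouse behind each line is not given in the sources used here. Each line received 100 nM alectinib or 0.1% DMSO for 1, 2, 3 or 5 days. There was 1 polyA-selected library per line, treatment and day, so that 4 days stand in for replicates of a treatment in a line. The p-values measure a spread between days, pooled over the lines, rather than one between independent tumors. A further pair of libraries labelled EA3 day 7 gives 26 in all.

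Each ribosome contains 1 copy of nearly every one of these proteins, and the genes are transcribed in concert and at high level in growing cells. Their mRNAs belong to the terminal oligopyrimidine (TOP) class, which begins with a cytosine followed by an unbroken run of pyrimidines and whose translation is controlled by mTORC1 through LARP1. Receptor tyrosine kinases such as ALK feed growth signals into this system by way of PI3K, RAS and MYC. The counts report mRNA abundance only; neither translation nor ribosome number was measured.

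The first bases of several members show the tract that defines the class. In RefSeq annotation of GRCm38.p6, 61 members had an annotated start, of which 13 (21.3%) began with C and at least 4 more C or T, against 673 of 27025 genes (2.49%). When the run could begin within 5 bases of the annotated start, the shares were 45.9% and 18.5%. The stretches below run from 10 bases before to 20 bases into the transcript, 5′ to 3′, with the pyrimidine run from the annotated start in capitals; the first 6 are subunit members that fell with alectinib, and the last 2, from Rpl22 and Rps27l, have no such run at the annotated base and are shown for contrast. The starts given for Rpl22 and Rps27l are each 1 of 2 in RefSeq.
Rps6 (chr4:86857348-86857377, minus strand): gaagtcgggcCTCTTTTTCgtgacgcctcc
Rps27 (chr3:90213629-90213658, minus strand): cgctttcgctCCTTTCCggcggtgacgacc
Rpl15 (chr14:18270967-18270996, minus strand): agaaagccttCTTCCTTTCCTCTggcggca
Rpl35 (chr2:39005112-39005141, minus strand): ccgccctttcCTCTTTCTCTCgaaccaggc
Rpl38 (chr11:114668570-114668599, plus strand): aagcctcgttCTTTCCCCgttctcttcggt
Rplp2 (chr7:141447641-141447670, plus strand): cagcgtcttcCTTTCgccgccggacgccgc
Rpl22 (chr4:152325716-152325745, plus strand): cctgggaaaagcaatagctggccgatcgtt
Rps27l (chr9:66946076-66946105, plus strand): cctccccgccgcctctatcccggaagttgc
An annotated start can differ from the start a cell uses by a few bases, so that no run here says only that these letters are not at that base.

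Before the results, some libraries have to be set apart. In 8 of the 24 libraries of days 1 to 5, the dropped -ps rows held between 2.07 and 3.2 counts for every 100 counts in members, against 0.43 to 0.65 in the other 16, and mt-Co2 stood at 250 to 338 CPM (counts scaled to library size, here without the TMM factors used for all other CPM) against 6.05 to 20.2. These were EA1 alectinib of days 1, 3 and 5, EA2 DMSO of days 1 and 5, EA2 alectinib of day 2, and EA3 alectinib of days 1 and 3. No DMSO library of EA1 or EA3 was among them, so that in these lines the split moved with treatment, and its part in the results was not tested beyond the fits given below. The pair labelled EA3 day 7 had Rpl29 at 82.7 and 73.6 CPM, inside the EA2 DMSO range of 57.2 to 114 and below the EA3 DMSO range of 312 to 564; it entered no main result.

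Other features of the libraries also moved with treatment. Total counts ran from 5780062 to 11732401. Mitochondrially encoded genes took 1.19% to 1.97% of counts in EA1 DMSO and 2.35% to 2.77% in EA1 alectinib, 1.38% to 2.02% and 1.45% to 2.43% in EA2, and 1.49% to 2.71% and 2.50% to 3.85% in EA3. The 5 epithelial markers summed to 4633 to 9252 CPM with DMSO and 3245 to 5367 with alectinib in EA1. In EA2 they summed to 1811 to 2695 and 567 to 1169, without overlap, and in EA3 to 4633 to 6680 and 2950 to 6655. The 4 alveolar type 2 markers never summed above 0.974. The 4 fibroblast markers, of which 3 were tested, summed to 1.39 to 6.07 with DMSO and 14.1 to 72.2 with alectinib in EA1, 38.4 to 56.1 and 48.2 to 167 in EA2, and 9.23 to 18.2 and 79.4 to 232 in EA3. The immune markers summed to at most 92.1 and the endothelial markers to at most 9.06. The part of these shifts in the results was not tested, and in bulk RNA fewer cells of a type and less RNA per cell cannot be told apart.

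The members took a smaller share of the library with alectinib in EA1 and EA3. In EA1 DMSO they held 6.24%, 7.19%, 6.20% and 8.82% of counts on days 1, 2, 3 and 5, and in EA1 alectinib 4.15%, 4.16%, 3.25% and 3.53%. In EA3 the shares were 6.54%, 10.8%, 5.76% and 8.24% with DMSO and 4.22%, 4.49%, 4.0% and 4.04% with alectinib. In both lines every alectinib library lay below every DMSO library, with mean log2 ratios of -0.91 ± 0.31 and -0.86 ± 0.35 (SD, n = 4 days).

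EA2 gave a smaller difference whose sign changed on 1 day. Its DMSO libraries held 5.72%, 8.04%, 7.42% and 5.59% and its alectinib libraries 6.01%, 5.72%, 5.12% and 4.58%, so that the groups overlapped and alectinib was the lower on 3 of 4 days. The mean log2 ratio was -0.31 ± 0.28 (SD, n = 4 days). The 2 lowest DMSO shares of EA2, those of days 1 and 5, were those of its 2 DMSO libraries with high pseudogene counts. Alectinib libraries varied less than DMSO libraries within each line, with SDs of 0.456, 0.637 and 0.223 percentage points against 1.23, 1.23 and 2.23.

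**Figure D1:**
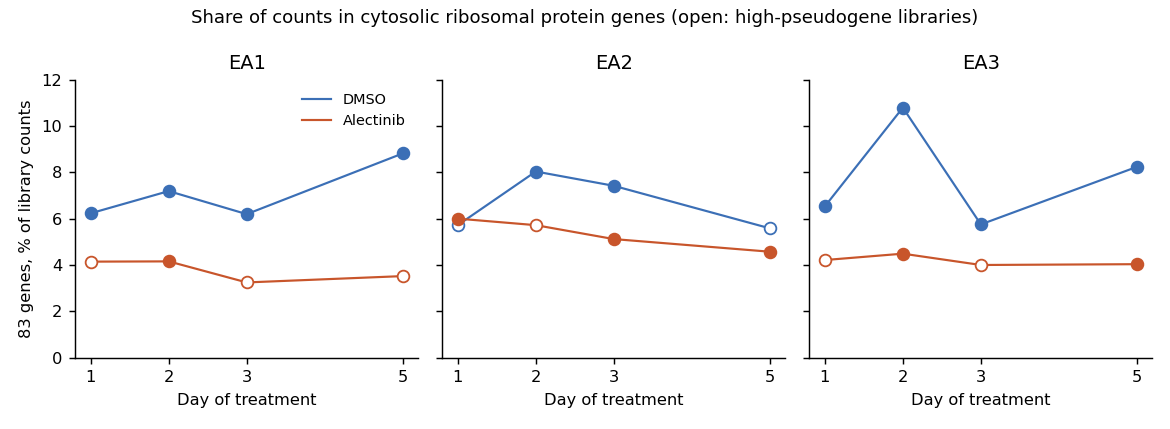
Summed share of the 83 genes in each library, in percent of library counts, against day of treatment, for EA1, EA2 and EA3. Blue points are DMSO, orange points alectinib, and open points the 8 libraries with high pseudogene counts; the alectinib line runs below the DMSO line on every day but EA2 day 1.

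Member by member, 78 of the 83 genes had enough counts to be tested, among 14264 genes in all. In edgeR's quasi-likelihood fit with a block for each line and day, 75 of 78 passed an adjusted p of 0.05 as lower with alectinib in EA1 and none as higher, where 14.6% of all tested genes were called lower and 19% higher. In EA3 the same 75 genes were lower and none higher, against 15.1% and 17.5% of all genes. In EA2 4 of 78 were lower, 5.13% of the members against 11.3% of all genes, and none was higher. Leaving out day 1, 2, 3 or 5 in turn gave 8, 2, 1 or 2 members in EA2, beside 18.5%, 17.2%, 14.9% and 18.6% of genes called in either direction. No member had an unadjusted p below 0.05 for a rise in any line, where 25.2%, 19.0% and 23.1% of all genes had one in EA1, EA2 and EA3, and DESeq2 called no rise either. With no filter on low counts 1 member was called higher in EA1, the pseudogene Rpl6l (1.11, adjusted p = 4.6e-04, edgeR).

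The sizes were read by subunit, with no test between the 2. The median log2 fold change was -0.98 in both EA1 and EA3 and -0.27 in EA2, where all tested genes had medians of 0.06, 0.07 and 0 in that order. The 47 large subunit genes had medians of -0.96, -0.30 and -1.0, and the 31 small subunit genes -1.0, -0.24 and -0.98. Members spread around these values with SDs of 0.34, 0.19 and 0.28 on the log2 scale, against 1.27, 1.12 and 1.17 over all genes. Scaling by library size alone moved the medians of all genes to 0.16 in EA1 and 0.18 in EA3. Relative to them the members stood at -1.05 in both lines, as they did in the fit reported here. A change of scaling shifts all genes of a library alike, so this distance could hardly change and is no check on the scaling.

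Groups separated fully for most genes in 2 lines. All 4 alectinib values lay below all 4 DMSO values for 74 of 78 members in EA1, where 13% of all tested genes were so ordered. The count was 3 in EA2 (12.5% of genes) and 70 in EA3 (10.7% of genes). By pair, EA1 and EA3 each had 75 members lower on all 4 days, against 21.7% and 20.4% of genes, and EA2 had 12, against 21.5%.

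**Figure D2:**
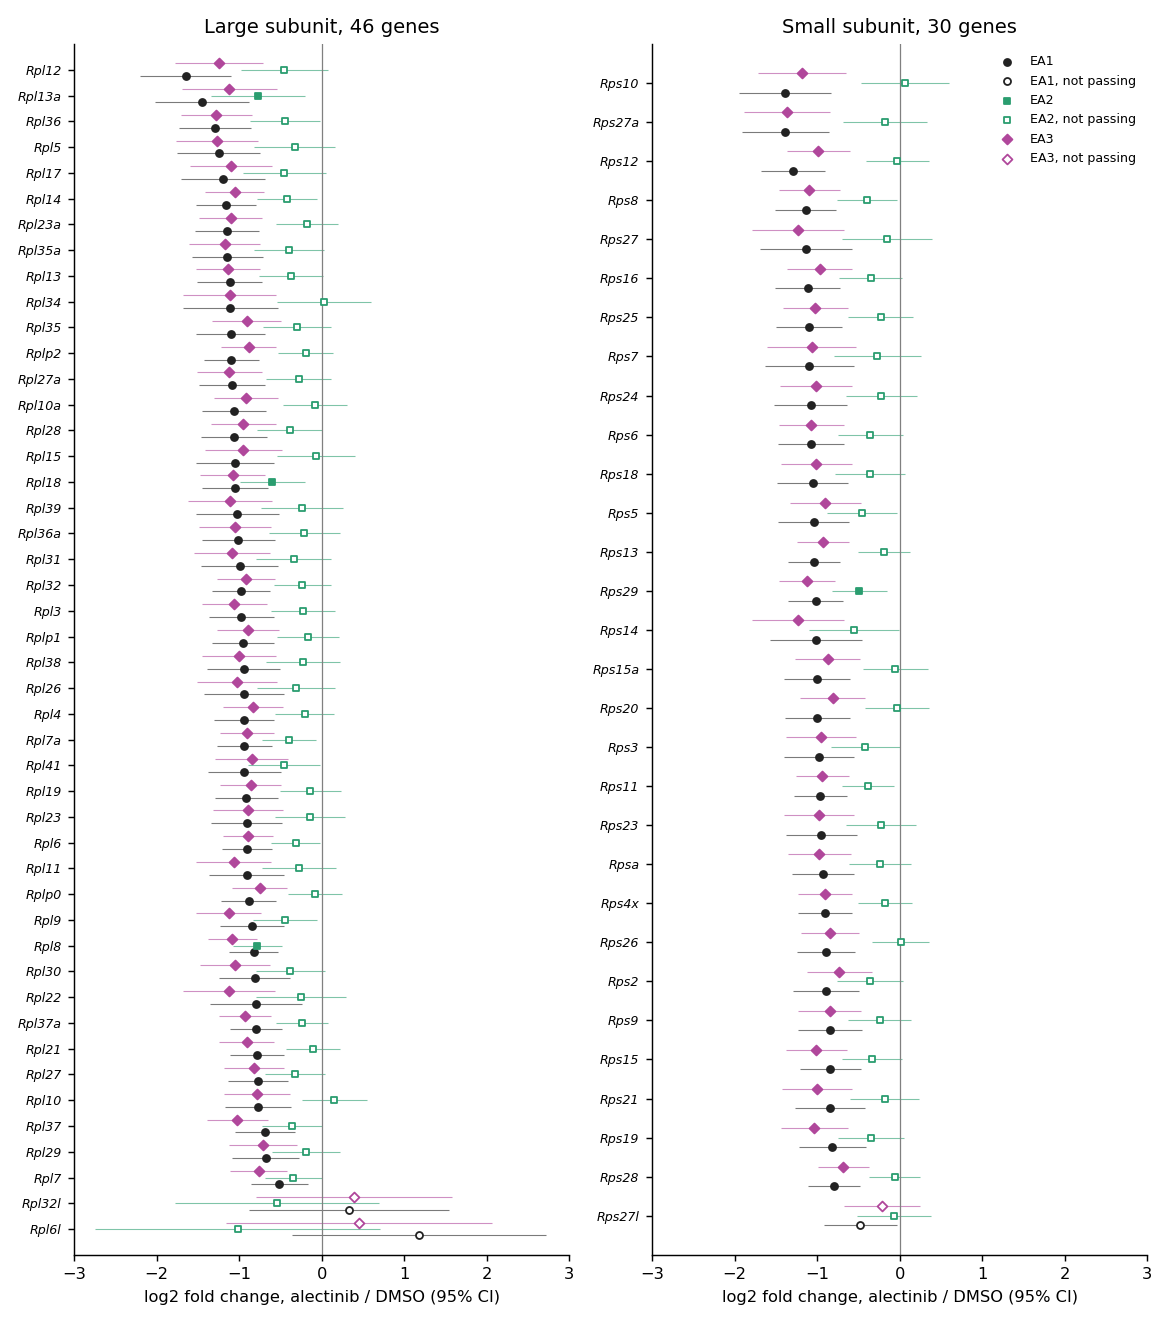
Log2 fold change of alectinib over DMSO with its 95% confidence interval for 46 large subunit and 30 small subunit genes, ordered by EA1. Black circles are EA1, green squares EA2 and magenta diamonds EA3, filled where the adjusted p was below 0.05; for all but Rpl32l, Rpl6l and Rps27l the EA1 and EA3 points are filled and below 0, those of EA1 between -1.65 and -0.52, while most EA2 points are open.

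Of the 12 line and day pairs, 4 had neither library with high pseudogene counts. The median member ratio was -0.79 in EA1 on day 2, -0.50 in EA2 on day 3, and -1.33 and -1.20 in EA3 on days 2 and 5, with 78, 75, 78 and 78 of 78 members lower. In the other 8 pairs it was -0.61, -1.07 and -1.46 in EA1 on days 1, 3 and 5, 0.13, -0.46 and -0.24 in EA2 on days 1, 2 and 5, and -0.71 and -0.67 in EA3 on days 1 and 3. Pairs without such a library had a negative median in all 3 lines, and the single positive median, EA2 day 1, came from a pair whose DMSO library was one of the 8.

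With the split as a term in the fit, 71, 4 and 76 members were lower in EA1, EA2 and EA3, beside 8.54%, 11.1% and 13.2% of genes, at medians of -0.95, -0.28 and -0.96. With the 8 libraries left out and no day block, the medians were -0.87, -0.56 and -0.99. That fit called 0 members lower in EA1, where 1 alectinib library was left and 0.255% of all genes were called lower, 1 in EA2 and 37 in EA3, against 2.95% and 4.47% of genes. These fits were chosen after seeing the data.

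**Figure D3:**
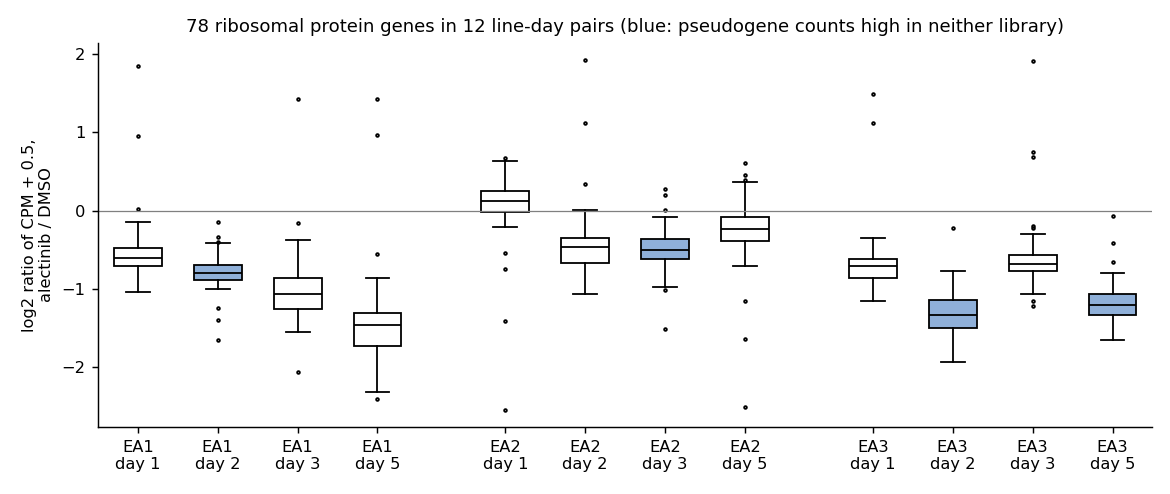
Log2 ratio of alectinib to DMSO, from CPM plus 0.5, for the 78 tested genes in each of the 12 line and day pairs. Boxes span the quartiles with the median as a line, whiskers reach 1.5 times the box length, dots are genes beyond them, and blue boxes are the 4 pairs in which neither library had high pseudogene counts; these 4 medians lie between -0.50 and -1.33.

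Rpl12 and Rps27a were among the 5 largest falls in both EA1 and EA3. Rpl12, a 60S protein at the base of the stalk, stood at 1309, 1612, 2026 and 2719 CPM in EA1 DMSO on days 1, 2, 3 and 5 and at 698, 683, 485 and 515 with alectinib. The groups did not overlap, and the log2 fold change was -1.65 ± 0.26 (SE; adjusted p = 3.9e-04, edgeR). In EA3 it fell from between 1344 and 3178 to between 791 and 985 (-1.25, adjusted p = 0.0022), and in EA2 the values overlapped, at 933 to 1649 with DMSO and 706 to 1001 with alectinib (-0.45, adjusted p = 0.21). Rpl12 shares 65.2% of the 100-base windows of its reference transcript with other genes, so that its reads cannot all be told from those of its copies.

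Rps27a, which is made as a fusion of ubiquitin and a 40S protein, led in EA3. Its CPM there were 766, 1820, 707 and 1297 with DMSO and 368, 476, 372 and 443 with alectinib, a log2 fold change of -1.37 ± 0.24 (SE; adjusted p = 9.7e-04, edgeR). EA1 gave -1.38 (adjusted p = 9.7e-04), from 660 to 1480 down to 291 to 429, again without overlap. EA2 gave -0.18 (adjusted p = 0.63). Next to Rpl12 in EA1 stood Rpl13a, a 60S protein, at 61.9 to 99.0 CPM with DMSO and 28.6 to 31.6 with alectinib (-1.45, adjusted p = 0.0012, edgeR), against -1.12 in EA3 (adjusted p = 0.0061). Rpl36, of the large subunit, came after Rps27a in EA3 with -1.28 and gave -1.29 in EA1, both past the threshold, and -0.45 in EA2 (adjusted p = 0.12).

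Rpl5 and Rpl11 bind 5S rRNA and, when free of the ribosome, MDM2. Rpl5 was at 1218, 1552, 1952 and 2840 CPM in EA1 DMSO and 788, 880, 677 and 695 in EA1 alectinib, and at 1459, 3168, 2056 and 3046 against 894, 1018, 921 and 1013 in EA3. Both differences passed, at -1.25 and -1.27, with no overlap of groups. Rpl11 fell by 0.91 and 1.07 on the log2 scale in the same lines. In EA2 the values were -0.33 and -0.27, neither past the threshold (adjusted p = 0.33 and 0.38, edgeR).

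The stalk proteins that recruit elongation factors, Rplp0, Rplp1 and Rplp2, fell in EA1 by 0.89, 0.96 and 1.10 and in EA3 by 0.75, 0.89 and 0.89 on the log2 scale. Rpsa, the 40S protein also known as the laminin receptor, fell by 0.93 and 0.97. Rps6, the S6 kinase substrate, was at 931, 1101, 1138 and 1311 CPM in EA1 DMSO and 608, 613, 450 and 462 with alectinib, and its fold changes were -1.08 in EA1, -0.36 in EA2 (adjusted p = 0.18) and -1.07 in EA3. Rpl22, which is dispensable for translation in most cells and has the paralogue Rpl22l1, gave -0.80 and -1.13 in EA1 and EA3, both past the threshold. The smallest fall that passed in EA1 was that of Rpl7, at -0.52 (adjusted p = 0.024, edgeR).

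The 4 genes that passed in EA2 were Rpl8, Rpl13a, Rpl18 and Rps29. Rpl8, a core 60S protein, was at 1629, 2128, 1676 and 1477 CPM with DMSO and 972, 1203, 854 and 982 with alectinib in EA2, with no overlap (-0.78 ± 0.14, SE; adjusted p = 0.0012, edgeR). It changed by -0.83 in EA1 and -1.08 in EA3, so that it had the smallest SD of the ratio over the 12 pairs, 0.244. Only 1.73% of its windows are shared with other genes. Rpl18 and Rps29 were also separated in EA2, at -0.60 (adjusted p = 0.029) and -0.49 (adjusted p = 0.034). Rpl13a also acts in the interferon response, and 29.4% of its exon bases and 59.3% of its reference transcript are shared with Gm45713. Its EA2 values overlapped, at 35.0 to 63.4 with DMSO and 21.9 to 39.1 with alectinib (-0.77, adjusted p = 0.049, edgeR).

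The 3 tested members that did not pass in EA1 or EA3 were Rps27l, Rpl32l and Rpl6l. Rps27l, a paralogue of Rps27 and a known target of p53, was at 119, 96.6, 107 and 118 CPM in EA1 DMSO and 79.5, 87.7, 69.5 and 80.2 in EA1 alectinib. These groups did not overlap, but the log2 fold change of -0.47 ± 0.21 (SE) had an adjusted p of 0.092 (edgeR). In EA3 the values were 69.3, 89.6, 23.2 and 33.8 against 46.6, 49.4, 37.8 and 32.2, with overlap (-0.21, adjusted p = 0.47), and in EA2 the change was -0.06 (adjusted p = 0.86).

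Its paralogue Rps27 fell by 1.14 in EA1 and 1.23 in EA3 on the log2 scale, past the threshold in both. No window of Rps27l is shared with another gene, whereas 98.4% of those of Rps27 are. Over the 24 libraries the median correlation of Rps27l with the other members was 0.28, where the median over all pairs of members was 0.82. The tested genes whose log2 CPM followed Rps27l most closely over the 24 libraries were Bcl7c, Commd1, Dpagt1, Ttc4 and Txnrd2, with Pearson r between 0.870 and 0.886; libraries of a line share that line, and no test was made.

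Rpl32l and Rpl6l are processed pseudogenes in GENCODE M21 that the symbol rule kept. Rpl6l stood at 22.2 to 40.7 CPM in the 8 libraries with high pseudogene counts and at 4.76 to 11.8 in the other 16. Its alectinib differences had adjusted p of 0.22, 0.39 and 0.68 in EA1, EA2 and EA3 (edgeR). Rpl32l never exceeded 7.07 CPM.

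The other 5 members were not tested. Rpl10l, Rpl3l and Rpl39l, paralogues known for expression in testis or muscle, and Rps4l, a pseudogene in the annotation, had between 0 and 3 counts in any library, no more than the 3 counts taken as a floor. Rpl24 encodes an abundant 60S protein, yet had 0 to 9 counts. On the same strand, 47% of its exon bases over all isoforms and 71.5% of its reference transcript are shared with Gm28037. Rps10 was likewise low, at 1.97 to 13.5 CPM. It shares 20.6% of exon bases over all isoforms and 80.3% of its reference transcript with RPS10-NUDT3. Whether the counts of either gene measure its expression was not tested. Rps10 passed as lower in EA1 (-1.39) and EA3 (-1.18), but with the counts of its pseudogene copies added the EA1 value was 0.69.

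Levels of different members were set side by side per kilobase, and their order depended on the length used. Per kilobase of exon, taken as the union of all annotated isoforms with a median of 1734 bases, Rplp1 was highest over the 24 libraries at 3415 CPM per kb, followed by Rpl36 at 1405, Rplp0 at 1332, Rps15 at 1252 and Rps2 at 1101. The median over the 78 tested members was 379, and 64 of them lay between 100 and 1000. Per kilobase of 1 reference transcript, a length chosen after seeing the data and with a median of 751 bases, Rplp1 was again at 3415, followed by Rps12 at 2679, Rps24 at 2188, Rps2 at 1842 and Rpl12 at 1751, so that 2 of the top 5 were shared, and the median was 912. Rps27l stood at 88.1 per kilobase of exon and 144 of transcript, Rpl13a at 24 and 48.5, and Rps10 at 2.54 and 11.2.

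Members were also set apart by the pyrimidine run, hosted genes and shared sequence, with no test between the groups. The 13 with the run stood at medians (log2) of -1.06 for EA1, -0.23 for EA2 and -1.0 for EA3, and the 44 other tested members with a RefSeq start -0.94, -0.26 and -0.98. The 13 include the processed pseudogene Rpl32l. The 29 members that host small nucleolar RNA genes had medians of -1.0, -0.28 and -0.97, and the 49 others tested -0.95, -0.26 and -1.0. By shared sequence, 25 tested members with under 25% of windows shared had medians of -0.91, -0.24 and -0.94, and 14 with at least 75% shared -1.09, -0.22 and -1.08.

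The difference between lines was tested directly. An overall test of the alectinib effect over the 3 lines called 7 of 78 members (8.97%), where 6.84% of all genes were called. Comparing EA2 with EA1, 12 members had a higher (less negative) effect and none a lower, 15.4% of the members against 2.26% of all genes higher and 4.19% lower, with a median difference of 0.73. The 12 became 3, 18, 0 and 0 without day 1, 2, 3 and 5 (5.46%, 7.30%, 1.2% and 1.74% of genes in either direction), 1 with the pseudogene split as a term (2.22%), 0 without the 8 libraries (0.0523%), 35 with DESeq2 (12.6%), 5 with no replicate block (5.01%) and 46 with no filter on low counts (6.36%); 17 of the 18 and 45 of the 46 were higher. EA3 against EA2 had a median of -0.71, yet no member passed in edgeR, where 2.86% of genes did. A lower effect at an unadjusted p below 0.05 was reached by 62 members, beside 8.74% of genes, and DESeq2 called 21, beside 7.06%. The count was 33 of 82 with no filter on low counts (4.26% of genes), of which 32 were lower, and 1 with the pseudogene split as a term (1.75%). EA3 against EA1 had a median of 0.01 and no member passed in edgeR, where 1.79% of genes did, or in DESeq2 (4.79%), nor had any an unadjusted p below 0.05 (15.2%).

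Rps12, a 40S protein, had the smallest p between lines. In EA2 it stood at 1255, 2019, 1610 and 1172 CPM with DMSO and 1529, 1606, 1348 and 1344 with alectinib, while in EA1 it went from between 1518 and 2205 to between 585 and 838. The EA2 effect exceeded that of EA1 by 1.27 ± 0.25 (SE; adjusted p = 0.011, edgeR), and the overall adjusted p was 0.017. Among the others called were Rps13, Rps10, Rps26, Rpl23a and Rplp2, with overall adjusted p between 0.037 and 0.046. The count changed with the fit. With the pseudogene split as a term 1 member passed (3.88% of genes), without the 8 libraries 0 (0.0458% of genes), with all 26 libraries 0 (2.78%), and with DESeq2 32 (13.7%). Without the 8 libraries the median difference of EA2 from EA1 was 0.26 in place of 0.73.

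Time within treatment showed no member past the threshold. For each doubling of time on drug, the alectinib effect shifted by a median of -0.39 in EA1, while EA2 had -0.16 and EA3 -0.14, with 0 of 78 called in each line in edgeR, where 0.021%, 0% and 0.0491% of all genes were called. These medians moved with the days used. Without day 1 those of EA2 and EA3 were 0.18 and 0.07, without day 5 that of EA2 was -0.44, and with all 26 libraries that of EA3 was 0.15. An unadjusted p below 0.05 for a lower slope was reached by 30, 4 and 0 members, beside 6.16%, 4.11% and 6.65% of all genes, and DESeq2 called 3, 0 and 0 members, beside 1.72%, 0.421% and 2.45% of genes. Within EA1 the DMSO level had a median slope of 0.24 per doubling of days and the alectinib level one of -0.13, with 0 members called in edgeR, where 1.98% of genes rose with DMSO and 0% fell with alectinib. An unadjusted p below 0.05 in those directions was reached by 19 and 1 members, beside 11.7% and 1.3% of genes, and DESeq2 called 2 and 0, beside 9.0% and 0.154% of genes in either direction. The highest DMSO shares were on day 5 in EA1 and on day 2 in EA2 and EA3, so that the order of days differed between lines.

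Among DMSO libraries the lines differed in 11 of 78 members (14.1%) by an overall test, where 39.7% of genes differed; with the day as a block, 22 members and 55.6% of genes did. EA2 was lower than EA1 for 6 members and higher for 1, against 15% and 14.2% of the 12886 genes tested there. EA3 was higher than EA1 for 2 members and lower for 0, against 12.4% and 9.76% of genes. There 1 member had an unadjusted p below 0.05 for a lower level (16.2% of genes). DESeq2 called 1 lower, where it called 26.9% of genes in either direction. EA3 was higher than EA2 for 10 and lower for 0, against 14.6% and 11%. There 1 had an unadjusted p below 0.05 for a lower level (16.5% of genes). DESeq2 called 1 lower, and the share of all genes that it called there is not given here. With that block, the counts by pair of lines were 14, 4 and 15 members in either direction, beside 40.8%, 32.6% and 36.5% of genes. With the pseudogene split as a term they were 1, 1 and 4, beside 17.1%, 20.1% and 14.5% of genes, and the median of EA2 against EA1 moved from -0.24 to 0.00.

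Rpl29, a 60S protein, had the largest difference. It stood at 485, 477, 427 and 470 CPM in EA1 DMSO, at 67.0, 114, 94.6 and 57.2 in EA2 and at 527, 564, 312 and 426 in EA3. Every EA2 value lay below every value of the other lines, and EA2 was lower than EA1 by a log2 difference of -2.52 ± 0.25 (SE; adjusted p = 5.8e-06, edgeR). EA3 exceeded EA2 by 2.50 (adjusted p = 8.9e-06). The 24 pseudogene rows that share sequence with Rpl29 held 58.2 ± 12.9 CPM (SD, n = 4) in EA2 DMSO and 5.49 in EA1, and with them added EA2 was still lower than EA1, at -1.77 (adjusted p = 2.2e-05). With alectinib Rpl29 remained low in EA2, at 60.6 to 75.2.

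Rplp0 showed another pattern. Its own row was lower in EA2 DMSO, at 1392, 2043, 1453 and 1142 CPM, than in EA1, at 2871, 3120, 2411 and 3193, a difference of -0.98 (adjusted p = 0.0068, edgeR). The 3 pseudogene rows that share sequence with it, led by Gm8730, held 1035 CPM on average in EA2 DMSO, 11.3 in EA1 and 15.9 in EA3. Summed, Rplp0 and its copies averaged 2543 in EA2 and 2910 in EA1, and the difference was -0.23 (adjusted p = 0.47). For Rpl34, copies led by Rpl34-ps1 held 66.9 CPM in EA2 and 2.90 in EA1, beside 131 to 310 and 361 to 822 for the gene itself; the difference of -1.27 became -0.89 (adjusted p = 0.059) with copies added.

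Rpl9 was at 348, 635, 423 and 297 CPM in EA2 DMSO and 627, 727, 614 and 896 in EA1 (-0.79, adjusted p = 0.030, edgeR), with 1228 at most in EA3. Rps19, mutated in Diamond-Blackfan anemia, was also lower in EA2 than in EA1, at -0.72 (adjusted p = 0.049, edgeR). With the day as a block it was at -0.71 (adjusted p = 0.017, edgeR). The member called higher in EA2 was the pseudogene Rpl6l, at 40.4 and 40.7 CPM in the 2 DMSO libraries with high pseudogene counts, days 1 and 5, and 9.66 and 7.12 on days 2 and 3, against 7.11 to 9.18 in EA1. With the split as a term or without the 8 libraries its difference was no longer called, at 0.02 and 0.03 in place of 1.59, nor was it without day 1 (1.2) or day 5 (1.3). Rpl8 and Rps28 were the members higher in EA3 than in EA1, at 0.58 and 0.68 (adjusted p = 0.043 and 0.033, edgeR). With the day as a block both were still called, and Rps21 was also called higher (0.63, adjusted p = 0.039, edgeR). Rps27l was at -1.02 ± 0.38 (SE) in EA3 against EA1 and at -0.57 in EA2 against EA1, with adjusted p of 0.071 and 0.28. With the day as a block the first was called, at -1.23 ± 0.28 (SE; adjusted p = 0.0059, edgeR), and the second was not (-0.71, adjusted p = 0.059). Of 16 p53 target genes 8 and 11 passed as lower in those comparisons, where 9.76% and 15% of all genes did, and 0 and 1 as higher, the latter Plk2, where 12.4% and 14.2% did.

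**Figure D4:**
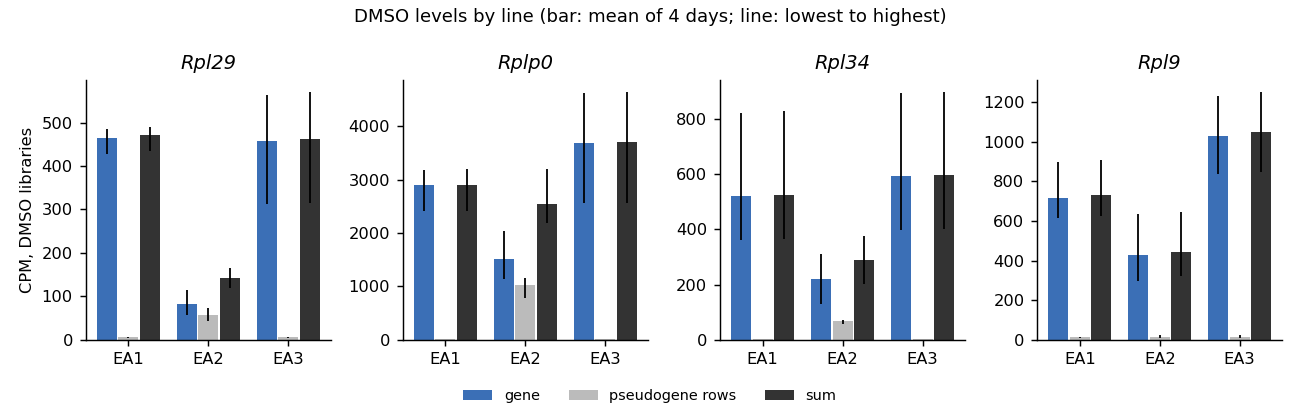
CPM in DMSO libraries of EA1, EA2 and EA3 for Rpl29, Rplp0, Rpl34 and Rpl9 (blue), for the pseudogene rows that share a 100-base window with each (grey), and for their sum (black). Bars are means of 4 days and vertical lines run from the lowest to the highest day; in EA2 the Rplp0 copies average 1035 and lift the sum to 2543, while the sum for Rpl29 stays low.

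Other genes of the same pathway were read from lists. Of 7 ribosomal protein genes outside the symbol rule, 5 were lower in EA1 and 5 in EA3, and 0 in EA2, with medians of -0.77, -0.87 and -0.08, where 14.6%, 15.1% and 11.3% of all genes were lower; Fau, whose product is a 40S protein fused to a ubiquitin-like domain, gave -1.0 and -1.01 and Rack1, the 40S scaffold, -1.05 and -0.95 in EA1 and EA3. Rpl7l1, a relative of Rpl7, was not called (-0.45 and -0.03). Of 21 other TOP mRNAs, 13 were lower in EA1 and 16 in EA3, with medians of -0.60 and -0.71. The elongation factor genes Eef1b2 and Eef1g gave -1.11 and -0.90 in EA1, and Eef1a1 -0.60. In EA2 2 TOP mRNAs were lower, Pabpc1 (-0.59) and Eef1g (-0.52), and 2 higher, Eif4a2 (0.58) and Vim (0.82), near or below the 11.3% lower and 13% higher over all genes. The host transcripts Gas5 and Snhg1, which carry small nucleolar RNAs in their introns and no conserved protein, gave -1.17 and -1.91 in EA1.

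Of 30 factors that build ribosomes, 25 were lower in EA1 (median -0.97), 18 in EA3 (-0.67) and 4 in EA2 (-0.32); Npm1, a nucleolar chaperone counted in both lists, gave -1.24 and -1.17 and Fbl, the box C/D methyltransferase, -1.27 and -1.11 in EA1 and EA3. The 4 called in EA2 were Fbl, Nhp2, Gar1 and Rrp9. The 77 tested mitochondrial ribosomal protein genes had medians of -0.18, -0.13 and -0.28, with 18, 12 and 19 lower and 2, 0 and 0 higher, where 14.6%, 11.3% and 15.1% of all genes were lower.

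Of 20 genes of the mTOR and S6 kinase pathway, 5 were lower and 2 higher in EA1, 2 lower and 1 higher in EA2, and 4 lower and 1 higher in EA3, with medians of -0.10, 0.04 and -0.01; of all genes 14.6%, 11.3% and 15.1% were lower and 19%, 13% and 17.5% higher. Eif4ebp1, the mTORC1 substrate that holds eIF4E, gave -1.43 in EA1 and -1.35 in EA3, and Larp1, which binds TOP mRNAs, -0.79 and -0.46, all past the threshold. Pdcd4, an inhibitor of eIF4A that S6 kinase marks for degradation, was higher in EA1 at 1.79 and did not pass in EA2 (0.47, adjusted p = 0.14) or EA3 (0.33, adjusted p = 0.28, edgeR). Of 10 genes for ribosomal protein chaperones and the MDM2 axis, 6, 2 and 3 were lower in EA1, EA2 and EA3; Ipo7, which imports ribosomal proteins, was called in all 3, at -1.70, -0.61 and -1.12.

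**Figure D5:**
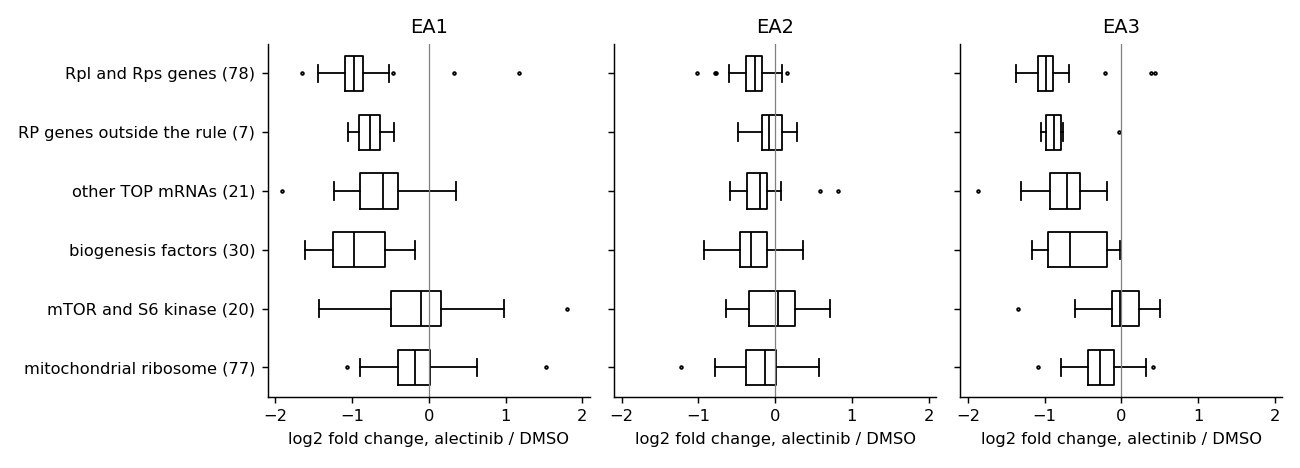
Log2 fold change of alectinib over DMSO in EA1, EA2 and EA3 for the 78 ribosomal protein genes, 7 ribosomal protein genes outside the symbol rule, 21 other TOP mRNAs, 30 ribosome biogenesis factors, 20 mTOR and S6 kinase pathway genes and 77 mitochondrial ribosomal protein genes. Boxes span the quartiles with the median as a line, whiskers reach 1.5 times the box length and dots are genes beyond them; in EA1 and EA3 the ribosomal protein boxes are narrow and centred near -0.98, and the mTOR and mitochondrial boxes lie close to 0.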

How the data were processed

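PolyA-selected RNA from 26 cultures was sequenced as paired reads of 151 bases. Per the labels and the study's methods, the authors trimmed the reads, aligned them to mm10 with STAR and deposited raw counts per gene as STAR counted them; FastQC and edgeR are also named in the submitters' processing notes. The strand column and annotation release are not given in the sources used here. Libraries held 5780062 to 11732401 counts, and 24 rows whose symbols had become date numbers (0.129% to 0.201% of counts) were left out.

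Genes were tested with edgeR 4.0.16 in R 4.3.3 (TMM scaling, its filter on low counts, robust quasi-likelihood F test), with a block for each of 12 line and day pairs and a coefficient for alectinib in each line. DMSO libraries of the lines were compared in a fit of the 12 DMSO libraries, with a term for line and no block for day. P-values were adjusted by the Benjamini-Hochberg method over all genes tested, and 0.05 was the threshold. CPM in the text use the TMM-scaled library sizes. DESeq2 1.42.0, other scalings and filters, a length offset, the day as a block and leaving out each day were alternatives. Scripts were tested on simulated data. Shared sequence was read as 100-base windows of GENCODE M21 transcripts.

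Deviations from the group means in same-day DMSO libraries of different lines correlated at 0.10 to 0.65, above 0.1 in 12 of 12 pairs, so the day numbers were read as pairing them. The DMSO fit reported here left this pairing out, and counts with the day as a block are given beside its results. Between DMSO and alectinib of a line and day the correlation ran from -0.31 to 0.57. It was above 0.1 in 6 of 12, and the alectinib fit kept the block.

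The members and lists were chosen with earlier results of these data known. Named members were the 5 with the largest change in each line past the threshold, the 5 with the smallest p between lines and for each pair of lines in DMSO, the 5 highest and lowest per kilobase, the 5 with the most variable ratio, and members with paralogues or known roles in the stalk, the 5S particle or signalling. Rps19 and Rps21 were named after their values were seen, as were the starts printed. Some members are counted but not reported here by name.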

Additional observations from a re-analysis of the deposited data

Results flagged for a closer look

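In 4 of 168 sets of 4 libraries examined, 1 library lay far from the other 3; chance alone gives about 1 in 20. In EA1 DMSO these were Rpl22 at 1062 CPM and Rpl36 at 873 CPM, both on day 5, which also had the highest member share of that line. In EA2 alectinib it was Rpl22 at 297 CPM on day 5, and in EA1 alectinib Rps29 at 206 CPM on day 3.

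The alectinib effect differed between the 3 lines in edgeR's test for 7 members (8.97%, beside 6.84% of all genes), of which 6 are given, with adjusted p of 0.017 for Rps12, 0.037 for Rps13, 0.040 for Rps10, 0.040 for Rps26, 0.042 for Rpl23a and 0.046 for Rplp2.

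Outside the member rows, the pseudogene rows that share sequence with Rplp0 held 1035 CPM on average in EA2 DMSO, against 11.3 CPM in EA1 DMSO and 15.9 CPM in EA3 DMSO.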

How the results depend on the processing

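Of the values tracked for 154 results, 2162 kept their direction and side of the threshold, 172 lost the call, 22 gained one, 61 moved and 2 reversed. The reversals were Rps10 in EA1 at 0.69 with copies added and Rpl6l in EA3 at -0.78 with the pseudogene split as a term. Without the 8 libraries, members called for alectinib numbered 0 in EA1, 1 in EA2 and 37 in EA3, in a fit with fewer samples.

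The 4 calls in EA2 were 9 with DESeq2 (27.9% of all genes in either direction), 7 with library size alone (23.9%) and 1 to 8 on leaving out a day (14.9% to 18.6%). The 7 between lines were 32 with DESeq2 (13.7% of genes), 2 with library size alone (7.39%), 49 with no filter (8.08%), 15 with the length offset (8.10%), 4 with no replicate block (5.66%), 0 with all 26 libraries (2.78%), 1 with the split as a term (3.88%), 0 without the 8 libraries (0.0458%), and 3, 2, 0 and 0 without day 1, 2, 3 and 5 (5.51%, 4.59%, 1.47% and 2.23%). The change per doubling of days in EA1 had 3 with DESeq2 (1.72%).

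In DMSO, EA2 against EA1 (7, beside 29.3% of genes) gave 19 with the length offset (29.4%), 14 with the day as a replicate block (40.8%), 4 with all 26 libraries (24.2%), 1 with the split (17.1%), 1 without the 8 (14.8%), and 4, 6, 6 and 1 without day 1, 2, 3 and 5 (23.1%, 19.1%, 23.3% and 19.5%). EA3 against EA1 (2, beside 22.2%) gave 5 with DESeq2 (26.9%), 1 with no filter (10.1%), 5 with the length offset (23.7%), 4 with the block (32.6%), 0 with all 26 (16.2%), 1 with the split (20.1%), 0 without the 8 (18.8%), and 0, 1, 2 and 0 without each day in that order (11.4% to 17.5%). EA3 against EA2 (10, beside 25.6%) gave 6 with all 26 (13.2%), 4 with the split (14.5%), 4 without the 8 (12.7%), and 7, 5, 8 and 4 without each day (15.8% to 22.5%). Summed over lines, the DMSO level over days (0) gave 2 with DESeq2, 3 with no filter, 3 with the length offset, and 0 to 1 on leaving out a day, at most 17.3%, 5.94%, 14.2% and 20.4% of genes in any line. The cause of these shifts was not tested.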

Other observations

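The pair of libraries labelled EA3 day 7 held members at 6.38% of counts with DMSO and 5.74% with alectinib. Of the 78 members, 57 were lower with alectinib, at a median log2 ratio of -0.20. The Rplp0 copies held 636 and 761 CPM by library size alone in these libraries, against a mean of 15.9 CPM in EA3 DMSO and 1035 CPM in EA2 DMSO of days 1 to 5.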
